A study of Macaca mulatta with 12 samples.

Results

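The 6 genes described here are genes of the red blood cell and its precursors: AHSP, ALAS2, SLC4A1, EPB42, HEMGN and CA1. They were chosen by name, but with earlier results of these data already known. Each was found as 1 gene identifier among the 23993 genes of the deposited transcript count table. The samples were liver biopsies of 6 male rhesus macaques of about 4.6 years, taken from each animal before it had drunk ethanol (baseline) and again at the end of an ethanol induction of 90 days (post-induction). All animals drank the same amounts during the induction, with steps of 30 days at daily doses of 0.5, 1 and 1.5 g of ethanol per kg. The classes name what the animals drank afterwards, when ethanol was freely available for 12 months. The 3 that then took 1.5 g per kg a day are the light drinkers (LD), and the 3 that took 4 g per kg a day are the very heavy drinkers (VHD). There were thus 4 groups of 3 libraries, 1 for each class at each time, and a numbered animal of a class is the same animal at both times. No group without ethanol was biopsied at the later time in these data, so the effect of ethanol and that of the time between the biopsies cannot be told apart.

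Red blood cells carry oxygen bound to haemoglobin, which is made of globin chains and haem. Their precursors divide in the marrow of the adult, build up haemoglobin and a flexible membrane skeleton, and lose the nucleus. The young cells that enter the blood still hold RNA of the last steps for a short time. The fetal liver makes red cells, while in the adult liver they are found as circulating blood, and liver macrophages take up aged ones. AHSP is the chaperone that keeps free alpha globin soluble, and ALAS2 starts haem synthesis in red cell precursors. SLC4A1 is band 3, the anion exchanger and main anchor of the membrane skeleton, and EPB42 is protein 4.2, which ties band 3 to ankyrin. CA1 is a carbonic anhydrase abundant in red cells. HEMGN, hemogen, is a nuclear protein of differentiating blood cells.

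All 6 genes were detected in all 12 libraries, at low counts. The count of a gene in a library ran from 1 to 87, in libraries of 5970033 to 25060718 counts, and all 6 passed the filter on low counts, as did 18373 genes in all. The unit is CPM, a count divided by its library's total (adjusted by edgeR's TMM factors) and multiplied by 1000000. They compare libraries for 1 gene and do not compare genes, since transcript length was not used. The lowest counts were 3 for AHSP, 1 for HEMGN and 1 for CA1 in the baseline library of VHD animal 1, and 3 for EPB42 and 3 for CA1 in that of LD animal 1. A count of 1 has a 95% Poisson interval of 0.0253 to 5.57, which covers counting error only. In bulk tissue fewer cells of a type and less RNA per cell cannot be told apart. The tissue label was matched by the hepatocyte markers, 7 of which together took 132400 to 251500 CPM of a library. VHD baseline 3 and VHD post-induction 2 stood apart from the other libraries at -92.7 and -82.3 on component 2 (20.6% of the variance of log2 CPM). Their share of miRNA among all counts was also the lowest of the 12.

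After the induction the fitted level of each of the 6 genes was higher than at baseline, by 1.43-fold for ALAS2 to 1.95-fold for AHSP as the mean over both classes (the mean response), but none of the 6 changes passed the test. The summed level of the 6 genes was 7.24 ± 2.38 CPM in LD baseline and 12.5 ± 5.15 CPM in LD post-induction (SD, n = 3). In VHD it was 7.65 ± 3.96 CPM at baseline and 12.6 ± 3.38 CPM post-induction (SD, n = 3). The highest sums were those of LD post-induction 3 (16.8 CPM), VHD post-induction 3 (14.6 CPM), VHD post-induction 2 (14.5 CPM) and LD post-induction 2 (14.0 CPM). The lowest was that of VHD baseline 1, at 3.11 CPM. The post-induction libraries of LD animal 1 (6.78 CPM) and VHD animal 1 (8.69 CPM) lay within the range of the baseline libraries, which reached 10.4 CPM.

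**Figure D1:**
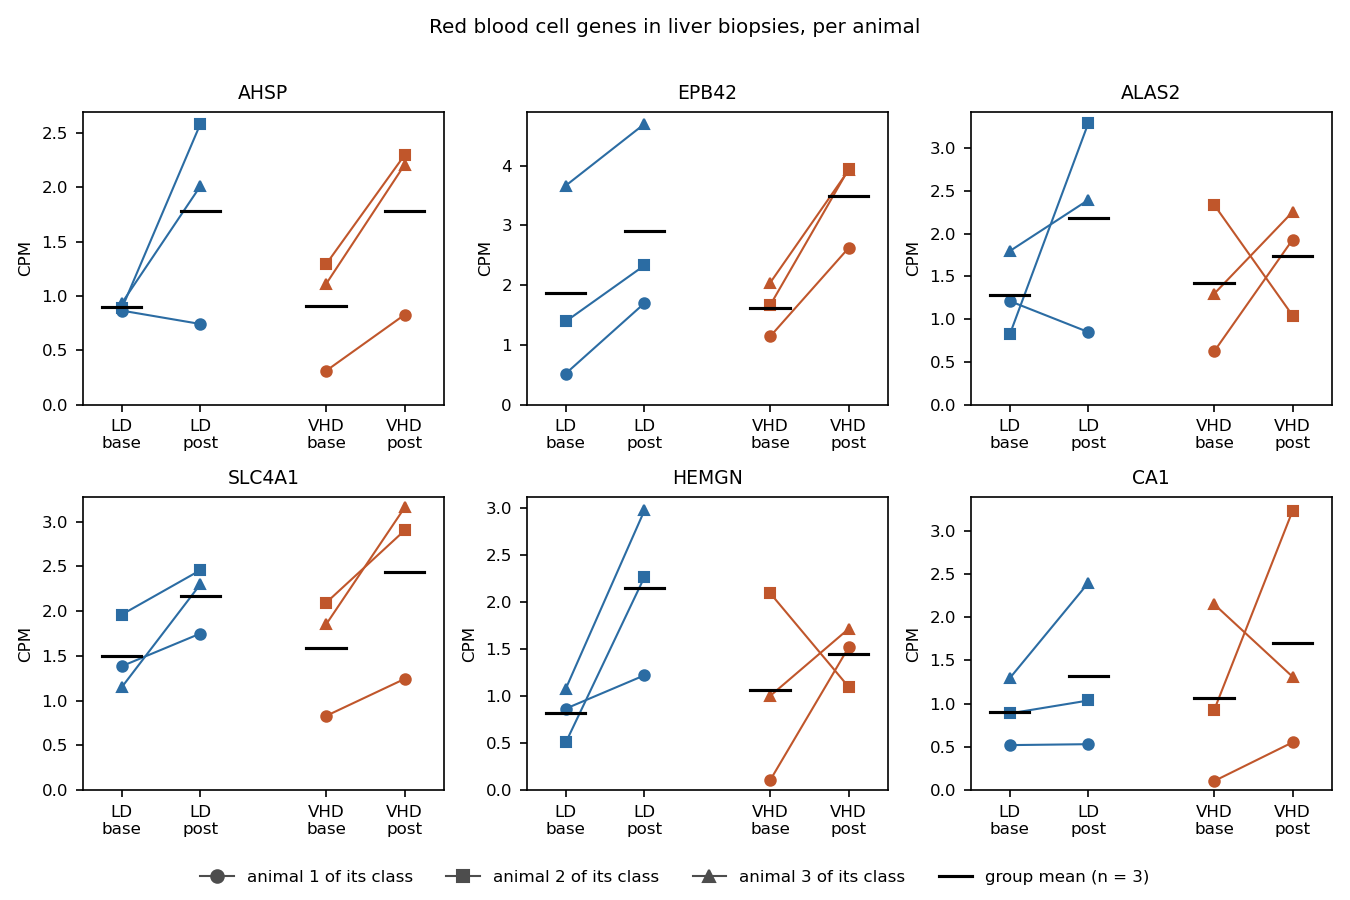
CPM of the 6 red blood cell genes (vertical axes, each from 0) in LD (blue) and VHD (orange) animals at baseline and post-induction. Lines join the 2 libraries of 1 animal, marker shapes give its number, and black bars are group means (n = 3). EPB42 and SLC4A1 are higher post-induction in 6 of 6 animals, ALAS2 in 4 of 6.

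AHSP, the globin chaperone, had 0.865, 0.886 and 0.934 CPM in LD animals 1, 2 and 3 at baseline and 0.742, 2.59 and 2.01 CPM post-induction. In the VHD animals it had 0.311, 1.29 and 1.11 CPM at baseline and 0.828, 2.30 and 2.21 CPM post-induction. It was higher post-induction in 5 of 6 animals. Animals 2 and 3 of both classes stood above every baseline library, while animal 1 of both classes did not, so that the groups overlapped within each class. The mean response was 0.97 ± 0.43 on the log2 scale (SE; 95% interval 0.04 to 1.89; unadjusted p = 0.0418), and the adjusted p of edgeR's quasi-likelihood test was 0.591.

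ALAS2, the first enzyme of haem synthesis in red cell precursors, had 1.21, 0.822 and 1.80 CPM in LD baseline and 0.848, 3.30 and 2.40 CPM in LD post-induction. VHD baseline held 0.621, 2.34 and 1.30 CPM of it and VHD post-induction 1.93, 1.04 and 2.26 CPM. Animals went both ways: LD animal 1 and VHD animal 2 were lower post-induction and the other 4 were higher. The mean response was 0.51 ± 0.43 (95% interval -0.41 to 1.44; adjusted p = 0.829).

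Of the membrane pair, SLC4A1 had 1.38, 1.96 and 1.15 CPM in LD baseline and 1.75, 2.46 and 2.30 CPM in LD post-induction. In VHD it had 0.828, 2.09 and 1.85 CPM at baseline and 1.24, 2.90 and 3.16 CPM post-induction. Each of the 6 animals was higher post-induction, by a ratio of 1.25 to 2.00, the narrowest range of the 6 genes. The groups still overlapped within both classes. The mean response was 0.57 ± 0.34 (95% interval -0.16 to 1.29; adjusted p = 0.735).

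EPB42, the partner of band 3, had 0.519, 1.39 and 3.67 CPM in LD baseline and 1.70, 2.33 and 4.70 CPM in LD post-induction. VHD baseline held 1.14, 1.66 and 2.04 CPM and VHD post-induction 2.62, 3.94 and 3.93 CPM. It too was higher post-induction in 6 of 6 animals, and in VHD the post-induction libraries lay above the baseline ones with no overlap. In LD the baseline library of animal 3 was above the post-induction libraries of animals 1 and 2. The mean response was 0.84 ± 0.41 (95% interval -0.05 to 1.72; adjusted p = 0.664).

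HEMGN had 0.865, 0.506 and 1.08 CPM in LD baseline and 1.22, 2.26 and 2.97 CPM in LD post-induction, which did not overlap. In VHD baseline it had 0.104, 2.09 and 1.00 CPM and in VHD post-induction 1.52, 1.10 and 1.71 CPM. VHD animal 2 was the 1 animal of 6 with a lower level post-induction. The mean response was 0.89 ± 0.49 (95% interval -0.17 to 1.95; adjusted p = 0.709).

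CA1, the carbonic anhydrase, had 0.519, 0.886 and 1.29 CPM in LD baseline and 0.530, 1.04 and 2.40 CPM in LD post-induction. VHD baseline held 0.104, 0.923 and 2.15 CPM and VHD post-induction 0.552, 3.23 and 1.31 CPM. Its level differed more between animals than between times, and it was higher post-induction in 5 of 6 animals, the exception being VHD animal 3. The mean response was 0.55 ± 0.59 (95% interval -0.72 to 1.83; adjusted p = 0.886).

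Read against all genes, 0 of the 6 passed an adjusted p of 0.05 in the mean response with edgeR, where 0.267% of the 18373 genes tested did, and 0.0163% were called higher. Just 1, AHSP, had an unadjusted p under 0.05 by edgeR, as did 7.91% of all genes. DESeq2 also called 0 of the 6, while over all genes it called more than edgeR did (counts in the closing section). The median log2 change of the 6 genes was 0.70, beside 0.07 over all genes tested. With 1 added to the authors' normalized values before log2, a scale that understates changes of low genes, their median was 0.43 by limma-trend, with 0 called. All 6 changes were positive, beside 57.4% of all genes. With 6 animals, 2.67% of all genes were higher post-induction in 6 of 6 and 14.8% in at least 5 of 6, which 2 and 5 of the 6 genes were. The post-induction libraries lay above those at baseline with no overlap for 5.5% of all genes in LD and 2.8% in VHD, and for 1 of the 6 genes in each, HEMGN and EPB42.

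**Figure D2:**
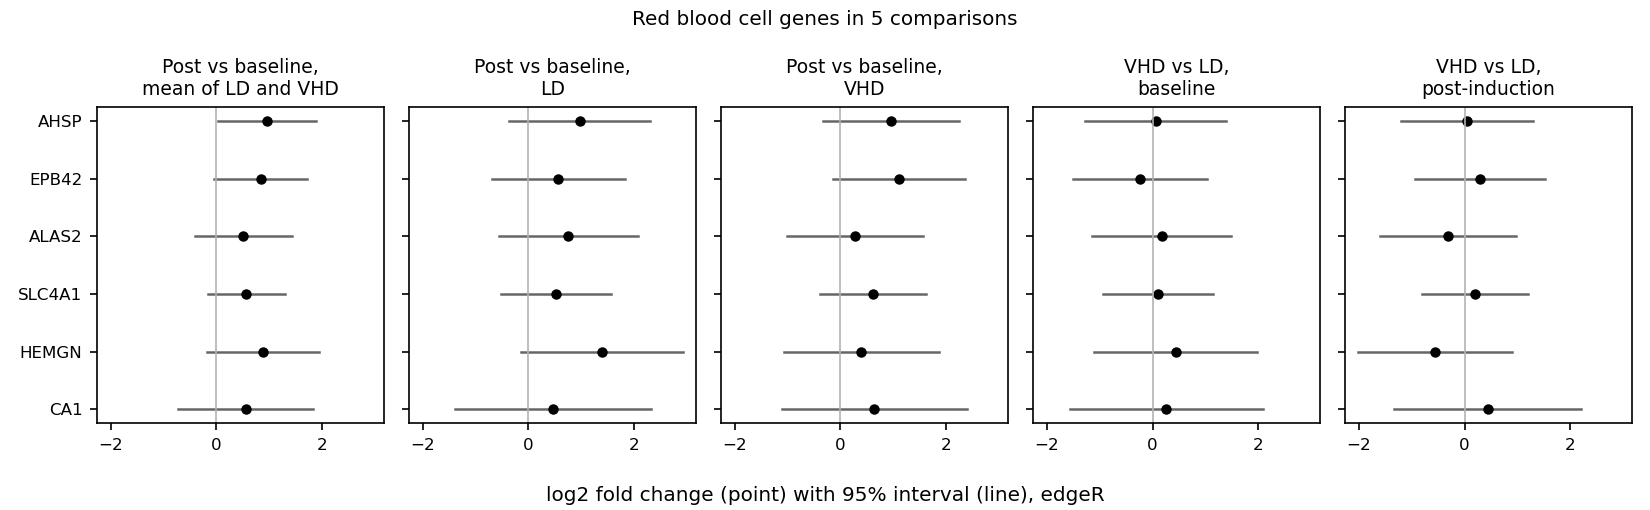
Log2 fold changes (points) with 95% intervals (lines) from edgeR for the 6 genes in 5 comparisons, on a shared horizontal axis with 0 marked. In the mean response the interval of AHSP starts at 0.04 and those of the other 5 genes include 0, as all intervals in the other panels do.

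Each class by itself showed the same direction with wide intervals. In LD the 6 responses ran from 0.46 ± 0.86 for CA1 to 1.39 ± 0.71 for HEMGN, and in VHD from 0.27 ± 0.60 for ALAS2 to 1.10 ± 0.58 for EPB42. By edgeR 0 of the 6 passed in either class, with adjusted p of 0.856 to 0.978 in LD and of 0.9999 in VHD. None reached an unadjusted p of 0.05 by edgeR, as 5.7% of all genes did in LD and 3.44% in VHD. DESeq2 called 0 of the 6 in VHD and gave none of them an adjusted p in LD, so that it could make no call on them there. By edgeR the background was 0.0% called of all genes in LD and 0.0% in VHD. DESeq2 did call genes in both classes, and their counts are given in the closing section. Some of these directions rested on 1 library. The LD response of CA1 was -0.26 without LD post-induction 3, and the VHD response of CA1 was -0.19 without VHD post-induction 2. Without VHD baseline 1 that of HEMGN was -0.09 in VHD, and that of ALAS2 was negative without VHD baseline 1 or VHD post-induction 3 (lowest value -0.06).

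Whether the classes responded differently was tested directly, and 0 of the 6 genes passed, nor did any reach an unadjusted p of 0.05 (0.0% of all genes called and 1.3% at the unadjusted p; adjusted p = 1 for each by edgeR's quasi-likelihood test, and 0 called by DESeq2). The VHD response minus the LD response ran from -1.0 ± 0.98 for HEMGN to 0.53 ± 0.82 for EPB42. The 95% intervals of the 6 differences spanned -3.12 to 2.73, so that large differences in either direction lay within them. AHSP had nearly equal responses in both classes, 0.97 ± 0.62 in LD and 0.96 ± 0.60 in VHD, with an interval of -1.80 to 1.78 for their difference.

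At baseline, before any ethanol, the later VHD animals did not separate from the later LD animals in any of the 6 genes. VHD minus LD ran from -0.24 ± 0.59 for EPB42 to 0.44 ± 0.71 for HEMGN, and each of the 6 differences was smaller than its own SE. The baseline test of edgeR called 0 of the 6 (0.00544% of all genes, which is 1 gene; none under an unadjusted p of 0.05, beside 1.86% of all genes; adjusted p = 0.9998 for each; 0 by DESeq2). Post-induction the differences ran from -0.56 ± 0.67 for HEMGN to 0.44 ± 0.82 for CA1, again each below its SE and with 0 of the 6 called by edgeR or DESeq2 (0.0% of all genes; none under an unadjusted p of 0.05, beside 2.44% of all genes; adjusted p = 0.9994). The sign of several of these small differences changed when 1 library was left out, and the ranges are given with the other settings in the closing section.

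The levels of the 6 genes tended to go up and down together over the 12 libraries, but not in every animal. In VHD animal 2 ALAS2 and HEMGN were lower post-induction (0.44- and 0.52-fold), while AHSP, EPB42, SLC4A1 and CA1 were higher. High r was common in these data: over all genes ranked, r with the mean profile of the 6 had a 5th percentile of -0.72 and a 95th of 0.75. Pearson's r of log2 CPM between 2 of them ran from 0.41 (ALAS2 with CA1) to 0.90 (AHSP with SLC4A1), with a median of 0.64 over the 15 pairs. The 12 libraries share animals, and each value rests on few counts, so r is given as a description. HEMGN went most closely with ALAS2 (r = 0.85) and AHSP with CA1 at r = 0.80. Their mean profile also went with component 1 of log2 CPM over all genes (31.4% of the variance; r = 0.76, and 0.40 to 0.93 for the single genes). The 5 libraries on the upper side of component 1, had summed levels of 14.0 and 16.8 CPM (LD post-induction 2 and 3), 10.4 CPM (VHD baseline 2), and 8.69 and 14.6 CPM (VHD post-induction 1 and 3). The other 7 held 3.11 to 14.5 CPM, the highest being VHD post-induction 2. Since 4 of these 5 libraries are post-induction, component 1 partly goes with time. With a term for this division in the model, a setting chosen after seeing the data, the median response of the 6 genes was 0.59, with 5 of 6 positive and ALAS2 at -0.20. Without the 2 libraries that stand apart on component 2 the median was 0.76, with 6 of 6 positive.

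**Figure D3:**
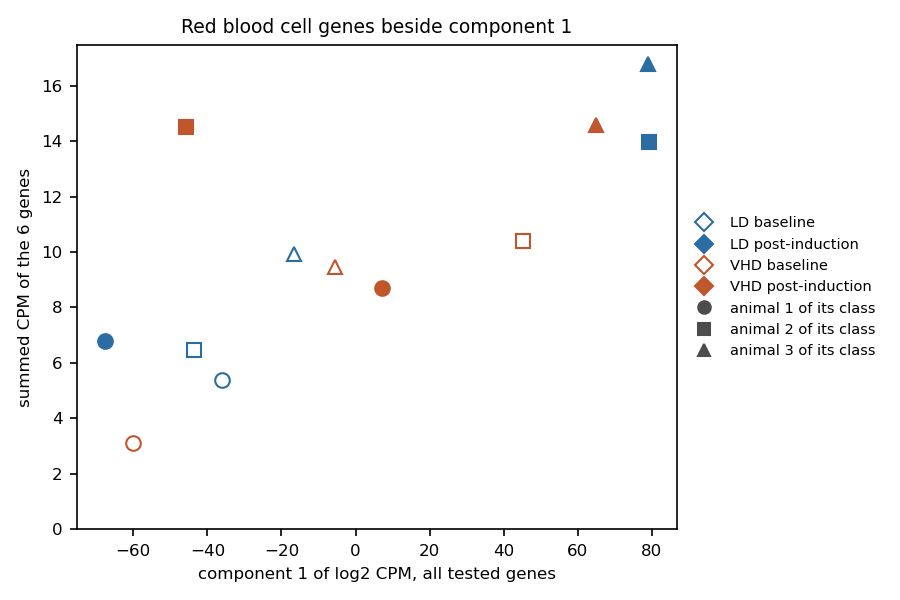
Summed CPM of the 6 genes (vertical axis, from 0) against component 1 of log2 CPM over all tested genes (horizontal axis, no unit), 1 point per library. Open points are baseline and filled points post-induction, LD in blue and VHD in orange, with shapes for the animal. VHD post-induction 2, at 14.5 CPM, is high in the genes but on the lower side of component 1.

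Globins are the protein chains of haemoglobin, and the 3 globin rows read here did not go with the 6 genes. Of the 10 globin names listed, HBQ1 and HBE1 matched an identifier. The other 8 names, HBB, HBA1 and HBA2 among them, matched none, so the results do not cover rows of those names. A row named HBA was added after its values were seen. Globin genes are near-copies of each other, so it is uncertain how the authors' counting shared reads among them, and a row's name may not give its true source. HBQ1 had 24.1, 21.8 and 50.02 CPM in LD baseline, 44.8, 9.31 and 15.5 CPM in LD post-induction, 20.4, 13.2 and 13.0 CPM in VHD baseline and 16.6, 66.3 and 15.7 CPM in VHD post-induction. HBE1 had 70.1, 100.4 and 260.7 CPM in LD baseline and 158.5, 67.2 and 123.5 CPM in LD post-induction. In VHD it had 97.5, 73.9 and 79.1 CPM at baseline and 60.6, 322.3 and 61.0 CPM post-induction. The 3 rows peaked together in VHD post-induction 2 and, at baseline, in LD animal 3. LD post-induction 2, which was high in AHSP and ALAS2, held the lowest levels of HBQ1 and HBA.

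Between the globin rows r was 0.84 to 0.90, but between a globin row and 1 of the 6 genes it was -0.61 to 0.38 over 18 pairs. The globin sum per summed CPM of the 6 genes ran from 6.41 in LD post-induction 2 to 48.5 in VHD baseline 1. With component 1 the globin rows had r of -0.70 to -0.44, the opposite sign to that of the 6 genes. None of the 3 rows passed by edgeR's quasi-likelihood test. The LD responses were -0.49 to -0.31 on the log2 scale and the VHD responses 0.83 to 1.09, with adjusted p of 0.928 to 0.966 in the mean response. In LD animal 1 all 3 rows were higher post-induction, at 1.74 to 2.26 times baseline, and in LD animals 2 and 3 all 3 were lower. The positive VHD responses rested on animal 2, whose post-induction level was 4.36 to 7.48 times its baseline level. In VHD animal 1 all 3 rows were lower post-induction, and in VHD animal 3 HBE1 and HBA were lower and HBQ1 was higher. Blood left in a biopsy was not measured, and its part in either pattern was not tested.

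**Figure D4:**
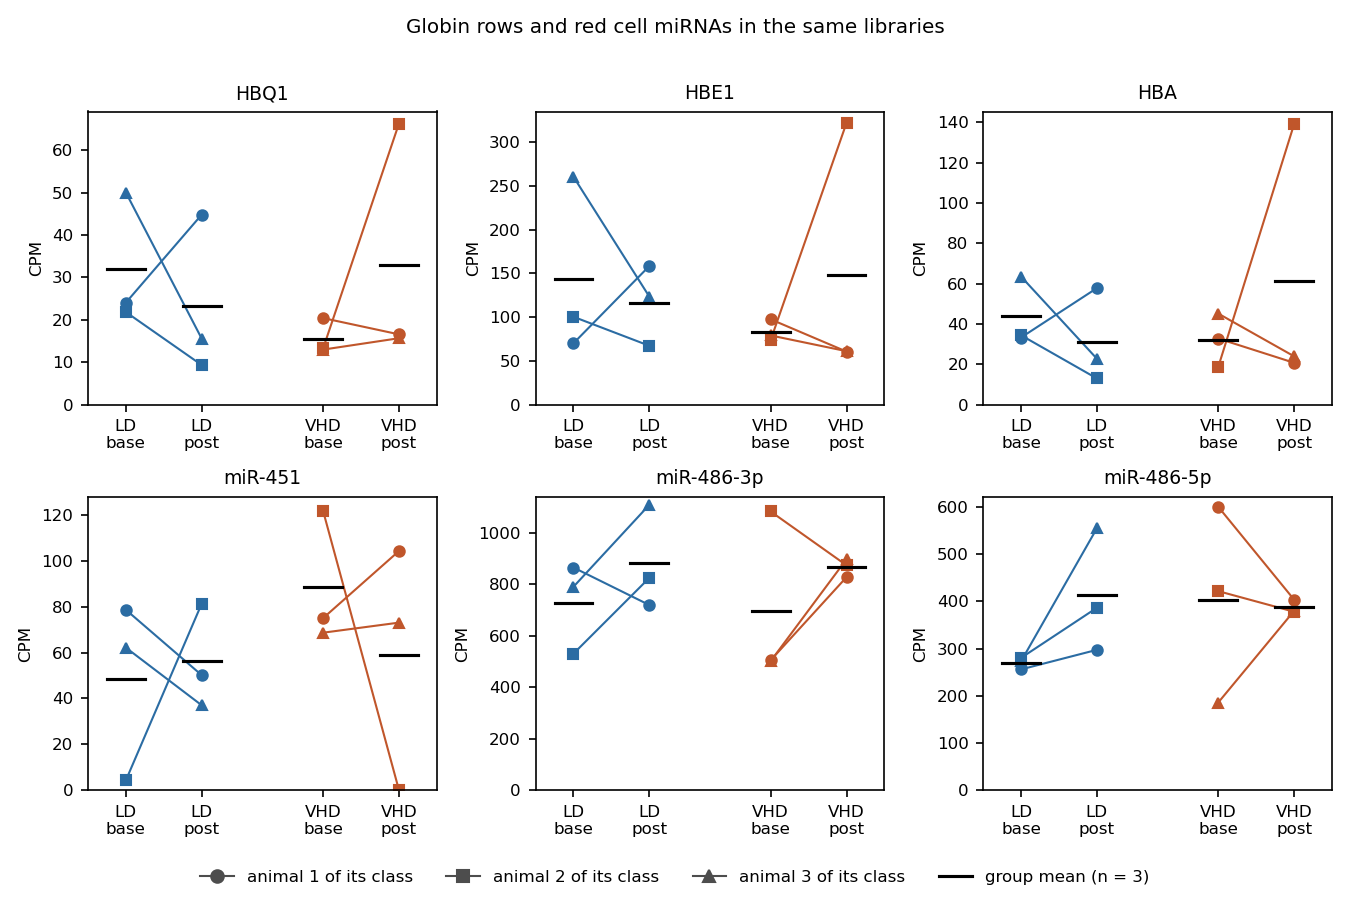
CPM of 3 globin rows (upper panels) and 3 red cell miRNAs (lower panels) by class and time, with lines joining the libraries of 1 animal and black bars for group means (n = 3). VHD post-induction 2 is the highest library for each globin row, and miR-451 has a count of 0 in it.

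Mature miRNAs were counted from the same RNA, and red cells are rich in miR-451, miR-144 and miR-486. The miRNA libraries held 127740 to 613359 counts. miR-451 had 78.7, 4.25 and 62.2 CPM in LD baseline, 50.2, 81.4 and 37.0 CPM in LD post-induction and 75.1, 121.9 and 68.7 CPM in VHD baseline. In VHD post-induction it had 104.4, 0 and 73.1 CPM, and the count of 0 allows up to 7.72 CPM in that library (a limit of 3 counts). It was thus lowest in LD baseline 2, with a count of 1, and in VHD post-induction 2, the library in which the globin rows peaked. Its highest count in a library was 63, in VHD baseline 2, so these CPM values rest on few counts. Its mean response was -0.18 ± 0.71 (adjusted p = 0.980).

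miR-486-3p lay between 501.7 and 1110 CPM, with a response of 0.30 ± 0.40, and miR-486-5p between 185.5 and 600.7 CPM, with 0.28 ± 0.39 (adjusted p = 0.980 for both). In LD animals 1, 2 and 3 miR-486-5p had 255.8, 280.2 and 272.9 CPM at baseline and 297.3, 386.5 and 555.0 CPM post-induction. In the VHD animals it had 600.7, 421.8 and 185.5 CPM and then 403.8, 378.1 and 379.9 CPM. miR-144 was detected in 3 VHD libraries (baseline 2, baseline 3 and post-induction 3), at up to 5 counts, and failed the filter. Together with 5 miRNA rows of miR-16, miR-92a, miR-363 and miR-107, which other cells also hold, 8 were tested and 0 passed in any of the 6 comparisons (0.0% of 427 miRNAs in each, by edgeR's quasi-likelihood test, and none by DESeq2). Their smallest unadjusted p in the mean response was 0.469.

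Other genes of the red cell, taken from lists of names, were read in the mean response, where none passed the test and each list's median lay below that of the 6 genes. Of the membrane and blood group genes, 13 of 18 were found and tested, 10 with a positive and 3 with a negative change (median 0.23, beside 0.07 over all genes). The 4 with the highest CPM were EPB41 (protein 4.1, 0.33 ± 0.20), ANK1 (ankyrin, 0.21 ± 0.31), SPTB (beta spectrin, -0.15 ± 0.23) and DMTN (dematin, 0.61 ± 0.36).

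Genes of haem synthesis and iron supply numbered 11 of 16, with 8 positive, 3 negative and a median of 0.12. UROD, uroporphyrinogen decarboxylase, had the largest change of them (1.27 ± 0.44, adjusted p = 0.405), and ALAD had 0.53 ± 0.38, the mitochondrial carrier SLC25A39 0.30 ± 0.22 and UROS 0.06 ± 0.30. These enzymes are made by hepatocytes too. The transferrin receptor TFRC, named after its values were seen, was lower post-induction in 6 of 6 animals (-0.85 ± 0.33, adjusted p = 0.505).

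Among the transcription factors and receptors of red cell formation 11 of 13 were tested, 8 positive and 3 negative (median 0.20). SOX6 had 0.77 ± 0.29 (adjusted p = 0.484), MYB 0.95 ± 0.70, the erythropoietin receptor EPOR 0.18 ± 0.26 and LMO2 -0.02 ± 0.20. The master factors of the lineage, GATA1 (0.20 ± 0.37) and KLF1 (0.99 ± 0.54, at a mean of 0.465 CPM), were named after their values were seen. Enzymes and other genes of late red cells were 19 of 19, with 10 positive, 9 negative and a median of 0.0027. SELENBP1 had 0.94 ± 0.31 (adjusted p = 0.370, higher in 6 of 6 animals), STRADB 0.60 ± 0.25, catalase, CAT, 0.19 ± 0.30 and HAGH 0.06 ± 0.44. CAT and SELENBP1 are also made by hepatocytes, and CAT had 1146 to 3473 CPM.

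Genes with which the liver handles old red cells and free haem were 10 of 13, with 4 positive, 6 negative and a median of -0.07. The haem carrier hemopexin, HPX, had -0.48 ± 0.30, the ferritin chains FTH1 and FTL 0.09 ± 0.22 and -0.24 ± 0.34, and the iron exporter SLC40A1 -0.0037 ± 0.29. Of 6 genes of dividing cells, 6 were positive (median 0.20), from 0.02 ± 0.39 for TOP2A to 0.61 ± 0.42 for MKI67. In all these lists edgeR's quasi-likelihood test called 0 genes at an adjusted p of 0.05. Unadjusted p under 0.05 was reached by 2 of the haem list, 1 of the regulators and 2 of the late genes, beside 7.91% of all genes, and 0.267% of all genes were called.

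**Figure D5:**
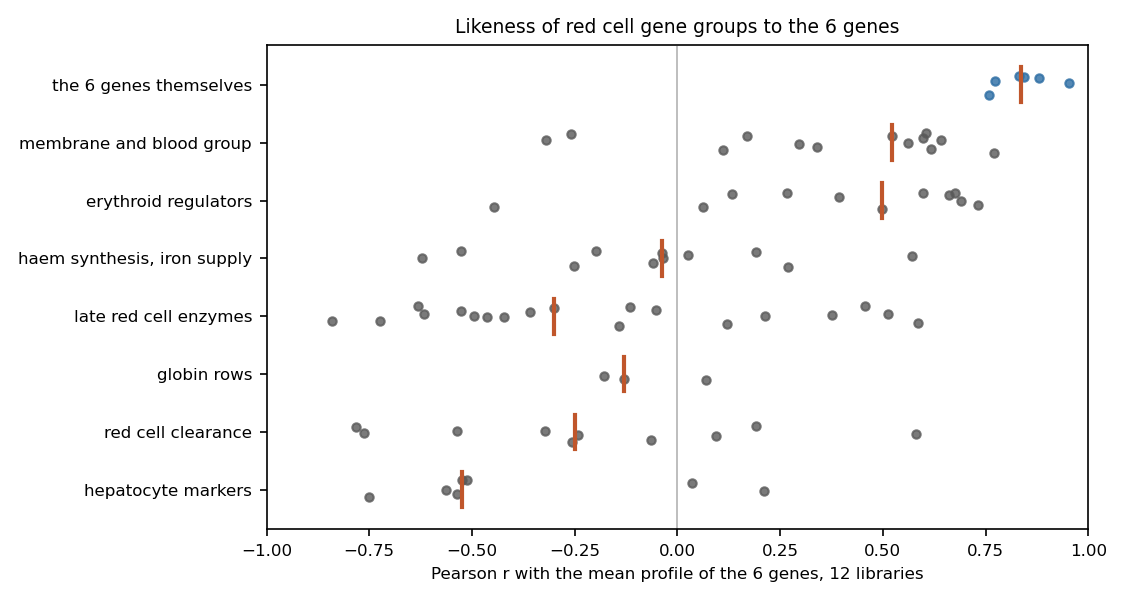
Pearson's r of single genes (points) with the mean profile of the 6 genes over 12 libraries (horizontal axis), by gene list, with orange bars for the median. The 6 genes, which make up the profile, lie between 0.76 and 0.95. Membrane genes (median 0.52) and regulators (median 0.50) lie mostly above 0, late red cell enzymes (median -0.30) and hepatocyte markers (median -0.52) mostly below.

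Which genes shared the profile of the 6 was read from r over the 12 libraries. Among 12026 genes with a symbol and enough counts the background was wide, with a 5th percentile of -0.72, a median of 0.03 and a 95th percentile of 0.75. Within the red cell lists SOX6 (r = 0.73), TRIM58 (0.69), BCL11A (0.67), KLF1 (0.66) and RHAG (0.64) were among the closest in the membrane and regulator groups. The second red cell carbonic anhydrase, CA2, went the other way from CA1 and the rest (r = -0.84), as did BNIP3L (-0.72), which clears mitochondria from maturing red cells. How much of the CA2 and BNIP3L RNA in these biopsies came from red cells was not tested. The 10 genes with the highest r were KNCN and PKHD1 (0.95 each), DSC2 and RNF207 (0.94 each), YWHAH, TBATA, HECTD4, GREB1L, CCN3 and DNAAF9 (0.93 each). None of these 10 was in any list used here. DSC2, a cadherin of desmosomes, had group means of 3.47 CPM in LD baseline, 11.3 in LD post-induction, 4.89 in VHD baseline and 11.4 in VHD post-induction.

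Markers of other blood and liver cells did not all go one way with the 6 genes. Of 8 platelet markers found, 6 were tested and 5 had a positive change (median 0.46). In the LD response by itself 5 of these 6 were positive (median 0.71), and in the VHD response 3 were positive and 3 negative (median -0.07). Their summed level was 98.0 to 136 CPM in LD baseline, 79.8 to 130 in LD post-induction, 82.5 to 202 in VHD baseline and 108 to 118 in VHD post-induction, and GP9 and TREML1 were at 0 in some libraries. TUBB1 made up most of these sums, with 66.8 to 199 CPM, and had r = -0.87 with the profile of the 6 genes, while the other 5 tested had positive r. Neutrophil markers (7 found, 6 tested) had 2 positive and 4 negative changes and a median of -0.67, with sums of 11.1 to 13.4 and 8.43 to 12.3 CPM in LD and of 14.8 to 37.6 and 9.38 to 23.2 CPM in VHD, before and after. CEACAM8 was at 0 in some libraries. Macrophage markers were negative in 6 of 6 (median -0.17), with sums of 496 to 576 and 166 to 453 CPM in LD and of 409 to 958 and 260 to 727 CPM in VHD. CD14 weighed most in these sums (average log2 CPM 8.17, beside 6.28 for C1QC, the next). In the LD response by itself 2 of the 6 macrophage markers were positive and 4 negative (median -0.04). Hepatocyte markers were positive in 2 of 7 (median -0.02). None of these markers passed edgeR's quasi-likelihood test, and their part in the levels of the 6 genes was not tested.

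The rows behind the 6 genes differ in how many transcripts they sum. Positions are those of the deposited table, on the build Mmul_8.0.1, and a start may differ by 1 base. AHSP (ENSMMUG00000000901) spans 29370445 to 29375417 on the plus strand of chromosome 20, and 91.1% of its counts fell on 1 of its 2 transcripts, the shorter one. SLC4A1 (ENSMMUG00000017100) spans 50119709 to 50142416 on the minus strand of chromosome 16, with 93.1% on 1 of 2. HEMGN (ENSMMUG00000013634; chromosome 15, 41709470 to 41729438, plus strand) and CA1 (ENSMMUG00000014383; chromosome 8, 83727826 to 83741296, minus strand) have 1 transcript each. EPB42 (ENSMMUG00000022255; chromosome 7, 19617297 to 19643904, minus strand) had its counts spread over 3 transcripts, with 30.2%, 30.2% and 39.6%. For ALAS2 (ENSMMUG00000008429; chromosome X, 54427271 to 54446748, minus strand) 69.3% fell on 1 transcript, which led in 9 of 12 libraries. The estimated split moved between libraries. In LD post-induction 2, the highest library of ALAS2, the other transcript held 43.0 of 51 counts, and in VHD baseline 3 it held 0.11 of 35.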

How the data were processed

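Total RNA from 12 liver biopsies (500 ng, RIN above 8.5) went into NEXTFLEX Combo-Seq libraries of mRNA and miRNA, read at 76 bases on a NovaSeq, per the labels' protocols. The deposited tables hold expected counts per transcript and per mature miRNA, made by the authors, and signal values, which the authors normalized and which equalled the expected count times 1 constant per library. BWA, Bowtie and Partek are named with the build Mmul_8.0.1, per the submitters' processing notes. Which version, role and annotation applied is not given in the sources used here. The signal values served only in 2 alternatives, on log2 of the value plus 1 or plus 0.1.

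The 40611 transcripts were summed into 23993 genes by identifier and rounded. Symbols came from a reference table (15471 genes). In R 4.3.3, edgeR 4.0.16 (TMM factors, filterByExpr by group, robust quasi-likelihood F test) was fitted to 4 group means over 12 libraries. Benjamini-Hochberg adjustment ran over the 18373 genes or 427 miRNAs tested, with a threshold of 0.05. The SE is the log2 change divided by the square root of F. Code was tested on simulated data. Profiles use log2 CPM with a prior count of 2. Libraries of 1 animal were treated as independent. Labels pair them by animal number, so the animal was also fitted as a block, as were the numbers between classes. Deviations of the 2 libraries of an animal from their group means correlated at -0.35 to 0.41 over genes. Libraries of the same number from different animals had -0.302 to 0.535, so r did not set the libraries of 1 animal apart. In the fit to 4 group means, p-values set a difference of means against the spread between libraries within groups, not against the spread of changes within animals.

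The 6 genes and all lists were chosen with earlier results of these data known. The text names each of the 6, the 4 members with the highest CPM of a list of red cell biology, the listed miRNAs, and the 10 genes most alike (average log2 CPM of at least 0). Some results are not reported here. Genes named outside this rule are marked where a value rests on them, apart from examples in the paragraphs on likeness and on markers, which were also picked after their values were seen. Further settings were DESeq2 1.42.0, RLE factors, 2 filters on low counts, only the groups compared, limma 3.58.1 (limma-trend) on the deposited signal, and leaving out each library. A fit without 2 libraries and 1 with a term for component 1 were chosen after seeing the data.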

Additional observations from a re-analysis of the deposited data

How the results depend on the processing

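None of the 6 genes passed in any comparison under the settings run, except that DESeq2 gave them no adjusted p in LD. In the mean response their median was 0.43 and 0.74 by limma-trend on log2 of the deposited values plus 1 and plus 0.1. There they remained positive under every setting except that ALAS2 was -0.20 with the term for the 5 and 7 libraries. The replicate block (animal) gave a median of 0.79 there, 6 of 6 positive and a smallest adjusted p of 0.439, and it changed no call on the 6 genes.

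With the 5 and 7 term ALAS2 was also -0.28 in LD and -0.11 in VHD. In the difference of the responses that term gave AHSP 0.33, ALAS2 0.17 and CA1 -0.0683, and at baseline AHSP -0.14, ALAS2 -0.38 and HEMGN -0.12. The AHSP difference, -0.01, was 0.0254 with RLE factors, 0.0260 with DESeq2, 0.0118 with a filter of 1 CPM in 3 libraries and 0.12 with the animal block. The baseline difference of AHSP was -0.0573 with the number as block. Without the 2 libraries that stand apart, the baseline differences were -0.10 for AHSP, -0.75 for CA1 and -0.0166 for SLC4A1, the post-induction ones -0.15 for AHSP and -0.39 for CA1, and miR-451 was 0.15 in the mean response.

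Leaving out each library gave ranges that cross 0. Within LD that was CA1 (-0.26 to 0.85), and within VHD ALAS2 (-0.0572 to 0.73), HEMGN (-0.0896 to 1.15) and CA1 (-0.19 to 1.68). In the difference of responses they were AHSP (-0.39 to 0.37), ALAS2 (-0.89 to 0.0590), CA1 (-0.66 to 1.31), SLC4A1 (-0.18 to 0.38) and EPB42 (-0.39 to 1.05). At baseline they were AHSP (-0.25 to 0.41), ALAS2 (-0.37 to 0.54), HEMGN (-0.40 to 0.91), CA1 (-0.84 to 0.73), SLC4A1 (-0.14 to 0.38) and EPB42 (-0.67 to 0.67). Post-induction they were AHSP (-0.33 to 0.43), ALAS2 (-0.72 to 0.12) and CA1 (-0.40 to 1.16), and for miR-451 the mean response ran from -0.47 to 0.21. The cause of these reversals was not tested.

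Counts over all genes moved more: 49 in the mean response became 266 with DESeq2, 4 with the animal block, 103 with the 5 and 7 term, 32 without the 2 libraries and 0 to 71 on leaving out 1 library. DESeq2 called 50 in LD and 54 in VHD, where edgeR called 0, or 3 in VHD with the 5 and 7 term and 1 without the 2 libraries or without VHD post-induction 2 alone. The other 3 comparisons had 0 or 1 under each setting. Of the 10 genes most alike, 5 remained by Spearman's rho and 1 when group means were removed first. Counts of 1 to 87 per gene and library limit all of these values.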
